A study of Drosophila melanogaster with 18 samples.

Results

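RNA-seq was used to compare the brains of control female and control male *Drosophila melanogaster*, with 3 libraries of each sex out of the 18 libraries of the series. The control flies were *y*, *w*; *tud1*, *bw*, *sp* over the balancer *CyO*, P[*w+*, *hs-hid*], so both sexes carried 1 mutant copy of *tud*, although the sample labels call them wild-type. The 6 other brain libraries, 3 of each sex, came from protein-null *tud* flies (*y*, *w*; *tud1*, *bw*, *sp* over *Df(2R)PurP133*) and served as a separate set of female and male brains. Brains of young flies were dissected by hand from removed heads and pooled within a replicate. The series' design text calls the replicates biological, and nothing ties a numbered female library to the male library of the same number. All libraries were depleted of ribosomal RNA, were not selected for poly(A) and passed a size selection against 5S rRNA and tRNA. The values are FPKM, a fragment count scaled by gene length and library size, and how library size was set is not given in the sources used here. They were compared as log2(FPKM + 1), and a log2 difference is always female minus male on this scale, on which the difference of a weakly expressed gene comes out too small.

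Sex in the fly is set by the number of X chromosomes, which switches the splicing factor Sxl on in females. Sxl directs the splicing of *tra*, and *tra* with *tra2* directs that of *dsx* and *fru*, which shape the female and male body and nervous system. In males the MSL complex, built from proteins and the noncoding RNAs *roX1* and *roX2*, coats the single X and raises its transcription, so that X-linked genes reach a similar output in both sexes. The fat body, an adipose and liver-like tissue that also lies in the head around the brain, is a known site of sex-biased expression in the head. In females it secretes the yolk proteins.

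Of 17288 genes in the table, 10424 averaged 1 FPKM or more across the 6 control libraries and were tested. At an adjusted p (limma, Benjamini-Hochberg) no higher than 0.05, 21 genes differed between the sexes, which is 0.201% of those tested, with 15 higher in females (0.144%) and 6 higher in males (0.0576%). At an unadjusted p under 0.05 there were 657 genes (6.3%). For 1403 genes (13.5%) the 3 female and the 3 male libraries did not overlap, with the females above for 748 (7.18%) and the males above for 655 (6.28%). An exact permutation test of 3 libraries against 3 cannot go below p = 0.1, the value of every called gene. The median difference of all genes was 0.05.

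Control male brain replicate 2 stood apart from the other libraries. Its median correlation with the 5 other control brains was 0.852, against 0.921 to 0.951 for the rest, and 503 of the tested genes were listed at 0 in it, against 83 to 132 elsewhere. Its depth, estimated from the spacing of the smallest FPKM values, was 7370000 fragments, against 9700000 to 15400000 in the 5 others, if FPKM was scaled by each library's own total. Without it, 25 of 10482 genes were called (0.239%), 16 of the 21 remained called, and the median difference of all genes was 0.01. It is kept below unless stated, and results that turn on it are given both ways. The white gene *w* is carried by the balancer of the controls as a transgene, and it stood at 2.35 to 4.66 FPKM in the control brains and at 0.101 to 0.701 FPKM in the mutant brains, so every library matched its labelled genotype there. *tud* itself stood at 20.2 to 36.2 FPKM in controls, at 12.9 to 17.9 FPKM in 5 mutant libraries and at 32.3 FPKM in mutant female replicate 2.

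The yolk protein genes showed the largest differences among protein-coding genes. *Yp1* stood at 987, 1008 and 2539 FPKM in the 3 female libraries and at 0.461, 2.67 and 0.752 FPKM in the 3 male libraries. *Yp2*, its neighbour on the X, stood at 1436, 1259 and 3912 FPKM in females and at 0.759, 4.81 and 1.75 FPKM in males. *Yp3*, elsewhere on the X, stood at 1739, 1390 and 5084 FPKM in females and at 8.64, 20.4 and 12.6 FPKM in males. Every female library therefore lay far above every male library for all 3 genes. Female replicate 3 was the highest for each, and male replicate 2 was the highest male library for each. In these bulk samples, fewer cells of a type and less RNA per cell cannot be told apart.

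On the log2 scale the difference was 9.33 ± 0.49 (SE) for *Yp1* (adjusted p = 0.00053), 9.30 ± 0.58 for *Yp2* (adjusted p = 0.00131) and 7.35 ± 0.54 for *Yp3* (adjusted p = 0.00294). The ratio of mean FPKM was 1167 for *Yp1*, 902 for *Yp2* and 197 for *Yp3*. The noncoding gene *asRNA:CR45601* lies within *Yp1* on the opposite strand (X:10054235-10055109, inside *Yp1* at X:10053811-10055498, dm6). It stood at 3425, 3161 and 8193 FPKM in females and at 1.99, 15.7 and 4.13 FPKM in males, a difference of 9.46 ± 0.68 (adjusted p = 0.00262). Female replicate 3 and male replicate 2 were again the highest libraries of their sex. The libraries were strand-specific, but whether strand was used in counting is not stated, so reads of this gene and of *Yp1* cannot be told apart here. These 4 calls held when any 1 library was left out.

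Follicle cells of the ovary also make yolk proteins, and their chorion genes were examined beside them. Of 10 chorion and vitelline membrane genes, 4 passed the filter and none was called (0 at an unadjusted p under 0.05 by limma), with differences of 0.57 to 1.24 and a median of 1.04. The summed level of all 10 was 57.5 FPKM in female replicate 3, the library with the highest yolk values, against 2.90 and 5.01 FPKM in the other females and 3.4 to 7.25 FPKM in males. *Cp15*, the most abundant of them, stood at 20.1 FPKM in that library and at 0.433 to 3.53 FPKM in the 5 others. The other female libraries held these genes near the level of the males, and 6 of the 10 were below the filter. The part of follicle cells in the yolk difference was not tested.

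**Figure D1:**
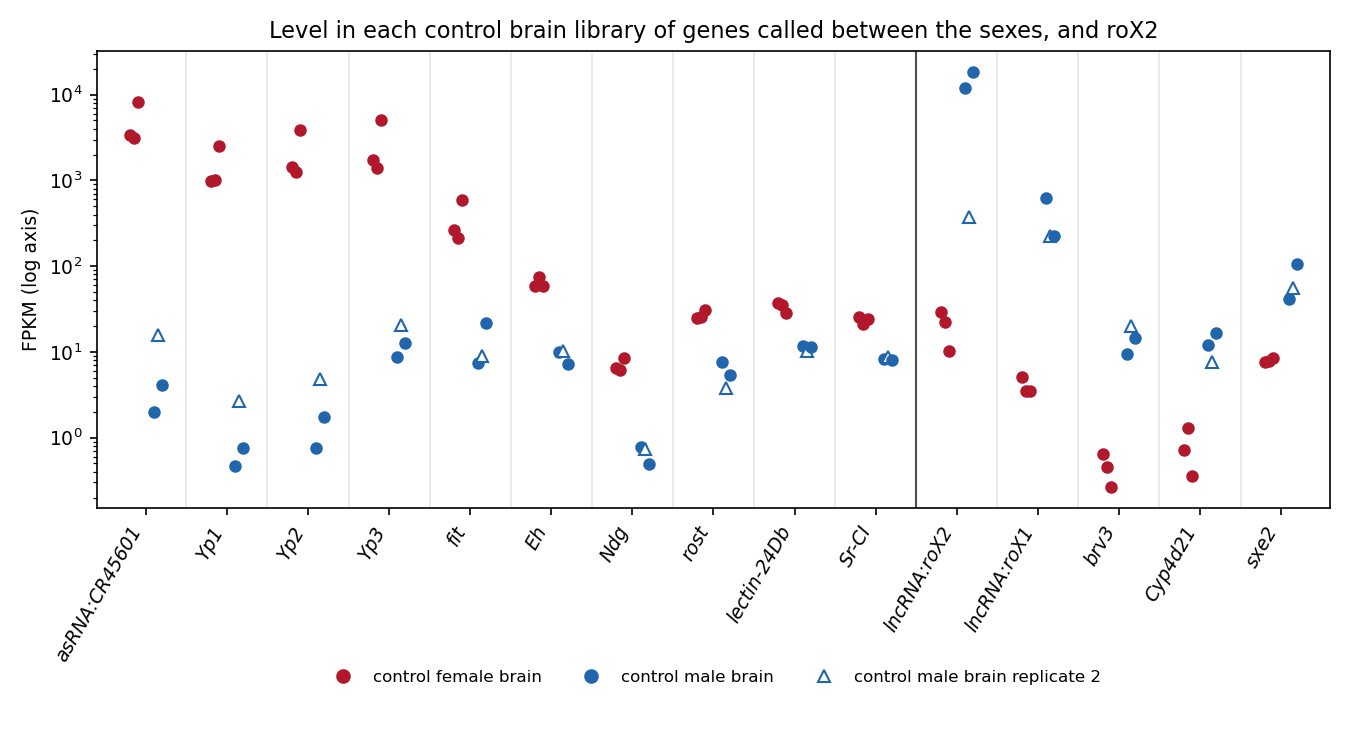
FPKM (log axis) of the 14 genes of at least 300 nt that passed the test, and of roX2, in each control brain library; red points are female libraries, blue points male libraries and the open triangle is control male brain replicate 2. The sexes do not overlap for any gene shown, and for roX2 the triangle (378 FPKM) lies far below the other males (12088 and 18619 FPKM).

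Another fat body product, *fit* (female-specific independent of transformer, a secreted protein of the head fat body), was also higher in females. It stood at 261, 211 and 588 FPKM in females and at 7.43, 9.06 and 21.6 FPKM in males, a difference of 4.68 ± 0.51 (adjusted p = 0.0265). Every female lay above the highest male, and female replicate 3 was again the highest. The call was lost without male replicate 1 or 2 or any 1 female replicate, with an adjusted p of 0.0424 to 0.104 over the libraries left out. Of the 6 sex-biased genes known from the head fat body, *fit* was called higher in females, *Cyp4d21* and *sxe2* higher in males (given further on), and *Obp99a*, *Obp99b* and *to* were not called. *CG31465* overlaps the end of *fit* on the opposite strand and stood at 4.37, 3.06 and 3.25 FPKM in females and at 0.11, 0 and 0.0359 FPKM in males, a difference of 2.11 ± 0.27 that missed the threshold (adjusted p = 0.057). As with *asRNA:CR45601*, reads of *CG31465* and *fit* cannot be told apart where the genes overlap.

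*Eh*, which encodes eclosion hormone, a neuropeptide made by a few brain neurons that triggers moulting behaviour, was the only neuropeptide gene among the calls. It stood at 59.3, 74.9 and 58.6 FPKM in females and at 10.1, 10.3 and 7.19 FPKM in males. The means were 64.3 ± 9.20 and 9.20 ± 1.74 FPKM (SD, n = 3 each), a 6.99-fold ratio and a log2 difference of 2.68 ± 0.22 (adjusted p = 0.00475). The libraries of a sex lay close together, and the call held without any 1 library (adjusted p 0.00953 to 0.0463).

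The other peptide genes of the brain were examined as a list. Of 43 matched neuropeptide precursor genes, a list that does not hold *Eh*, 35 were tested, none was called by limma and 3 had an unadjusted p under 0.05. The median difference was 0.30, against 0.05 over all genes, and 0.28 without male replicate 2. The smallest p was that of *Ilp3*, an insulin-like peptide of the brain's insulin-producing cells, at 366, 556 and 595 FPKM in females and 208, 261 and 135 FPKM in males (1.34 ± 0.35, adjusted p = 0.577). *Ilp5*, from the same cells, gave 1.22 ± 0.58 (adjusted p = 0.766) with overlapping groups, and *Ilp2* gave 0.56 ± 0.45 (adjusted p = 0.806). *Akh*, the adipokinetic hormone gene, was on the male side at 103, 97.5 and 106 FPKM in females and 152, 143 and 208 FPKM in males (-0.69 ± 0.23, adjusted p = 0.76). *Akh* is made in the corpora cardiaca, a gland attached to the gut near the brain. The most abundant member, the drosulfakinin gene *Dsk*, overlapped between the sexes (0.28 ± 0.37, adjusted p = 0.879).

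*Ndg*, which encodes the basement membrane protein nidogen, and *rost* (rolling stone), a membrane protein known from myoblast fusion, were also higher in females. *Ndg* stood at 6.57, 6.09 and 8.44 FPKM in females and at 0.786, 0.737 and 0.491 FPKM in males (2.26 ± 0.24, adjusted p = 0.0252). *rost* stood at 24.8, 25.6 and 30.9 FPKM in females and at 7.68, 3.80 and 5.34 FPKM in males (2.12 ± 0.26, adjusted p = 0.0468). For both the sexes were well apart. Of 10 tested muscle markers none was called by limma and 1 had an unadjusted p under 0.05, with a median of 0.05. That 1 was the actin gene *Act57B*, at 14.5, 9.95 and 14.5 FPKM in females and 7.45, 4.84 and 3.51 FPKM in males (1.19 ± 0.29, adjusted p = 0.515), with separate groups. The part of muscle in the differences of *Ndg* and *rost* was not tested. Both calls were lost without male replicate 3 or any 1 female replicate, with adjusted p up to 0.231 for *Ndg* and 0.273 for *rost*.

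Haemocytes are the fly's blood cells, and several of the genes higher in females are known from them. *Sr-CI*, a scavenger receptor that binds bacteria, stood at 25.2, 21.4 and 23.9 FPKM in females and at 8.29, 8.77 and 8.05 FPKM in males (1.39 ± 0.17, adjusted p = 0.0469). *lectin-24Db*, a C-type lectin, stood at 37.1, 35.0 and 28.4 FPKM in females and at 11.7, 10.3 and 11.3 FPKM in males (1.5 ± 0.19, adjusted p = 0.0469). Both were close to 3 times higher in females by mean FPKM (ratios 2.81 and 3.02), with little spread inside a sex. Both calls were lost when any 1 of the 6 libraries was left out, with adjusted p of 0.0506 to 0.469 for *Sr-CI* and 0.0747 to 0.446 for *lectin-24Db*.

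Further genes of this kind missed the threshold with groups that did not overlap, and all but *lectin-28C* were chosen after their values were seen. *Hml* (hemolectin, a clotting protein) stood at 56.8, 50.9 and 48.7 FPKM in females and 15.4, 22.9 and 18.8 FPKM in males (adjusted p = 0.0934). *NimC1*, a phagocytosis receptor, stood at 39.4, 42.4 and 40.2 FPKM in females and 11.2, 14.6 and 16.3 FPKM in males (adjusted p = 0.0637). These are defining haemocyte genes, and each was detected in all 6 brain libraries. *lectin-28C* differed by 1.69 ± 0.25 (adjusted p = 0.0931), *Idgf1*, a chitinase-like growth factor, by 1.95 ± 0.26 (adjusted p = 0.0602) and *Ppn* (papilin, an extracellular matrix protein) by 1.5 ± 0.28 (adjusted p = 0.213).

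Of 7 haemocyte markers, 6 were tested, 1 was called (*Sr-CI*) and 4 had an unadjusted p under 0.05, all 4 higher in females with separate groups (7.18% of all genes). The median difference was 1.12 (1.13 without male replicate 2), against 0.05 over all genes. *Pxn* (peroxidasin), also made outside haemocytes, gave -0.02 ± 0.37, and *eater*, a phagocytosis receptor, gave 0.54 ± 0.34, both with overlapping groups. Among the 8 tested C-type lectins *lectin-24Db* was the only call (0.144% of all genes were called higher in females), and their median was 0.08. The mean log2 level of the haemocyte list was 3.70 to 3.91 in females and 2.68 to 2.94 in males, a difference of 1.00 (exact permutation p = 0.1, the smallest possible). The summed level of the haemocyte list was 163 to 185 FPKM in females and 79.0 to 139 FPKM in males.

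**Figure D2:**
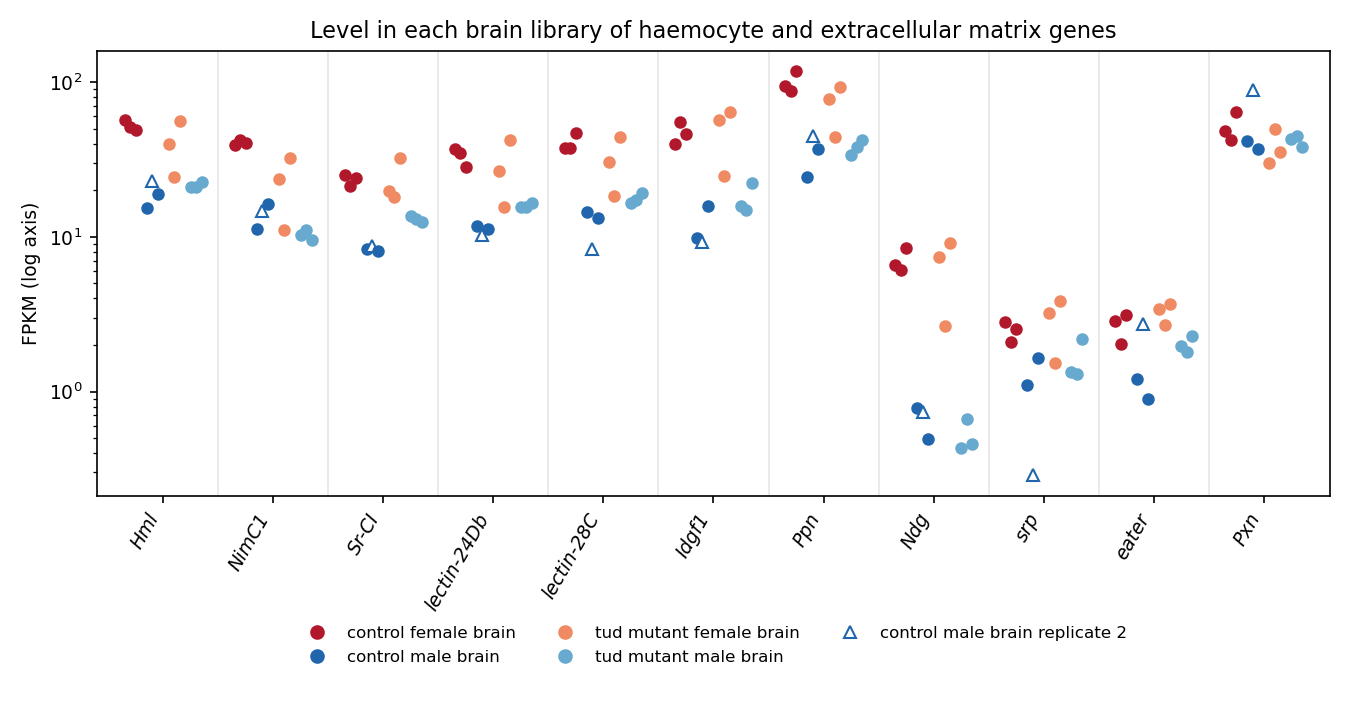
FPKM (log axis) of 11 haemocyte and extracellular matrix genes in each of the 12 brain libraries; points are libraries, coloured by group, and the open triangle is control male brain replicate 2. In controls the female points lie above the male points except for eater and Pxn; in tud mutants female replicate 2 lies near the males for Hml, NimC1 and both lectins.

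The fat body list as a whole was less uniform than the yolk genes. Of 10 tested markers none was called and 4 had an unadjusted p under 0.05 (limma). The median was 0.71 (0.69 without male replicate 2), and 8 of 10 values were positive. *Apoltp*, a lipid transfer particle protein, stood at 45.6, 57.9 and 45.8 FPKM in females and 16.0, 21.1 and 23.0 FPKM in males (1.28 ± 0.22, adjusted p = 0.192). *apolpp*, the main lipoprotein of the blood, stood at 702, 503 and 362 FPKM in females and 329, 58.9 and 244 FPKM in males (1.58 ± 0.65, adjusted p = 0.766). *Tsf1*, a transferrin and the most abundant marker of the list, was on the male side, at 439, 502 and 979 FPKM in females and 792, 2192 and 1194 FPKM in males (-1.09 ± 0.51, adjusted p = 0.766). The summed level of the list overlapped, with 1136 to 1802 FPKM in females and 1190 to 2334 FPKM in males, and the exact permutation p of its mean log2 level was 0.3. *Lsp2*, a storage protein, varied from 2.03 to 209 FPKM among the females alone, with female replicate 3 the highest. The mean difference of the list was 0.55, and 0.17 without that library. Its part in the differences of *fit* and the yolk genes was not tested.

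Antimicrobial peptides, which fat body and haemocytes make on infection, had the largest median of the immune lists. Of 16 tested genes 15 were on the female side, with a median of 1.81 (1.53 without male replicate 2), but none was called and 3 had an unadjusted p under 0.05 (limma). *BomS1*, a bomanin peptide induced by the Toll pathway, stood at 24.9, 38.8 and 30.9 FPKM in females and 5.45, 7.66 and 9.70 FPKM in males (1.93 ± 0.27, adjusted p = 0.0701). *DptA* (diptericin) stood at 75.9, 70.0 and 35.7 FPKM in females and 0.805, 7.84 and 58.2 FPKM in males (2.58 ± 1.15, adjusted p = 0.766), so male replicate 3 reached the female range. *Mtk* (metchnikowin) showed the same overlap, with 353 FPKM in male replicate 3 against 15.9 and 27.4 FPKM in the other males and 102 to 445 FPKM in females. In *tud* mutant brains the median of the list was -0.04.

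**Figure D3:**
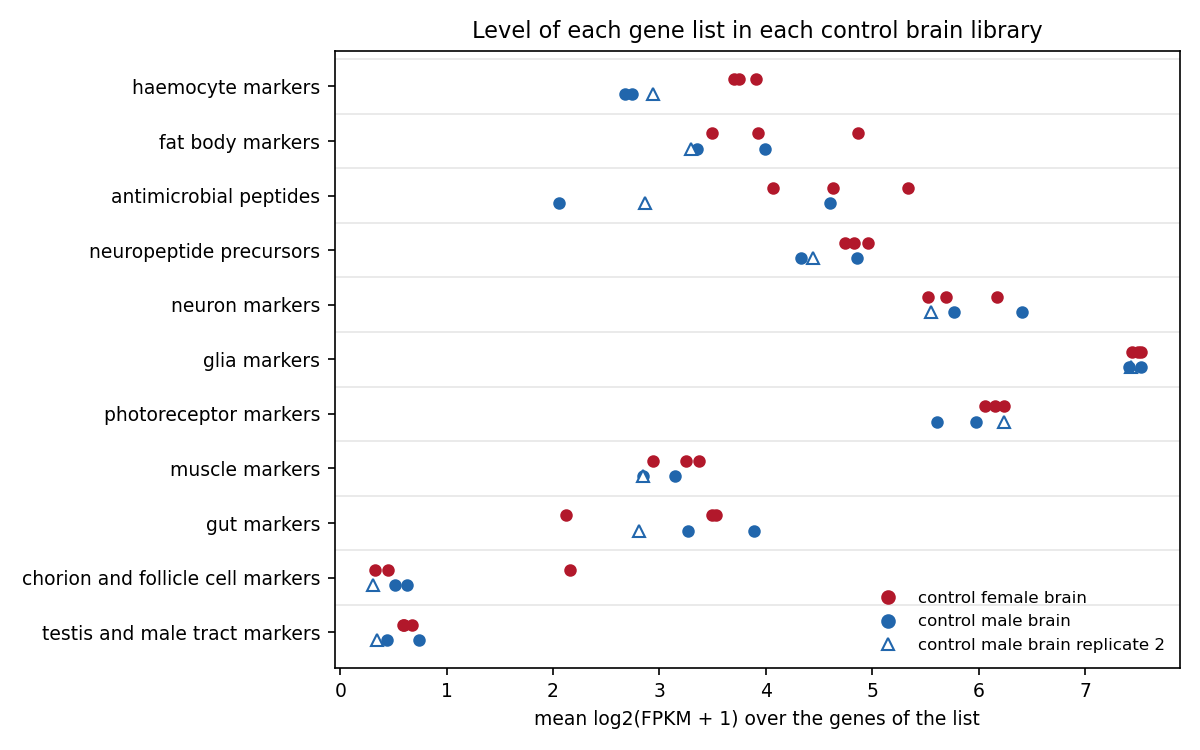
Mean log2(FPKM + 1) of the genes of 11 lists in each control brain library; red points are females, blue points males and the open triangle is control male brain replicate 2. The haemocyte markers have all females (3.70 to 3.91) above all males (2.68 to 2.94), as do the germline markers and yolk proteins, which are not drawn; antimicrobial peptides spread widely among the males (2.06 to 4.60).

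Among male-side genes of at least 300 nt, the 2 RNAs of dosage compensation had the largest log2 differences, *roX2* without passing the test. *lncRNA:roX1* stood at 629, 223 and 225 FPKM in males and at 5.03, 3.53 and 3.54 FPKM in females (-5.99 ± 0.42, adjusted p = 0.00262), an 89.0-fold ratio of means. *lncRNA:roX2* stood at 12088, 378 and 18619 FPKM in males and at 29.5, 22.1 and 10.2 FPKM in females, with no overlap. Male replicate 2 held far less *roX2* than the other males while its *roX1* was level with that of male replicate 3. With all libraries the difference in *roX2* was -7.79 ± 1.41 and missed the threshold (adjusted p = 0.209), and without male replicate 2 it was -9.56 and passed (adjusted p = 0.00106).

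The genes for the proteins of the MSL complex showed far smaller differences. Of the 9 dosage compensation genes, *roX1* alone was called with all 6 libraries (0.0576% of all genes were called higher in males), and the median of the list was -0.05. *msl-2*, whose protein is limited to males by translational control, stood at 10.7, 16.0 and 6.85 FPKM in males and 6.56, 5.30 and 5.53 FPKM in females (-0.77 ± 0.30, adjusted p = 0.766). The groups were separated by a small margin. *msl-1* (0.02 ± 0.30), *msl-3* (-0.05 ± 0.19), *mle* (-0.01 ± 0.25), *mof* (0.16 ± 0.25) and the kinase gene *JIL-1* (-0.05 ± 0.22) had overlapping groups, and so did *Clamp*, which encodes a DNA-binding recruiter of the complex (0.44 ± 0.25, adjusted p = 0.781).

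The sex determination genes act mainly through sex-specific splicing, which gene-level values do not resolve, and none of the 10 was called (0 at an unadjusted p under 0.05 by limma). *tra* came closest to a clean split, at 22.7, 22.6 and 22.5 FPKM in females and 19.4, 16.8 and 18.5 FPKM in males (0.30 ± 0.17, adjusted p = 0.781). It was the only member of the list with separate groups. *Sxl* (0.48 ± 0.47), *dsx* (0.71 ± 0.44), *tra2* (0.38 ± 0.41), *ix* (0.37 ± 0.25) and *fru* (-0.23 ± 0.37) overlapped between the sexes, and *her*, *snf*, *fl(2)d* and *vir* lay between -0.03 and 0.10. For *Sxl*, *tra*, *tra2*, *dsx*, *ix* and *fru* male replicate 2 gave the lowest value of all 6 libraries. In *tud* mutant brains *Sxl*, *tra* and *dsx* had every female above every male, and the other members overlapped. There 10.8% of all genes had groups that did not overlap, in either direction.

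A pair of known male-enriched head genes was higher in males, namely *Cyp4d21* (sex-specific enzyme 1, a cytochrome P450) and *sxe2* (sex-specific enzyme 2, a lipase). *Cyp4d21* stood at 12.1, 7.53 and 16.5 FPKM in males and at 0.716, 1.30 and 0.360 FPKM in females (-2.84 ± 0.34, adjusted p = 0.0468). The female values rest on an estimated 9 to 30 fragments a library, against 90 to 260 in males. *sxe2* stood at 41.9, 55.6 and 105 FPKM in males and at 7.67, 7.90 and 8.59 FPKM in females (-2.81 ± 0.34, adjusted p = 0.0461). The sexes were well apart for both, but the *Cyp4d21* call held without male replicate 2 (adjusted p = 0.0248) and was lost without any other library (up to 0.231), and the *sxe2* call was lost without male replicate 2 (adjusted p = 0.0795) or any 1 female replicate (up to 0.238).

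Among 66 tested cytochrome P450 genes, *Cyp4d21* was the only call (0.0576% of all genes were called higher in males), and the median was 0.08. The most abundant, *Cyp28d1*, stood at 401 to 459 FPKM in females and 424 to 467 FPKM in males. A pair of odorant-binding proteins that the head fat body expresses pointed in opposite directions without passing the test. *Obp99b* stood at 14.4, 63.0 and 185 FPKM in males and 0.260, 0.943 and 7.49 FPKM in females (-4.37 ± 1.03, adjusted p = 0.484). *Obp99a* stood at 0.220, 3.02 and 1.15 FPKM in males and 12.6, 5.28 and 58.8 FPKM in females (2.98 ± 0.84, adjusted p = 0.658). Neither overlapped between the sexes, but the values of a sex spread over more than a factor of 10 for both genes in each sex. *to* (takeout), a male-biased head fat body gene, overlapped, at 230, 104 and 162 FPKM in males and 460, 99.2 and 153 FPKM in females (0.28 ± 0.59, adjusted p = 0.922).

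*brv3*, a member of the brivido group of channel proteins, completed the male calls of at least 300 nt. It stood at 9.43, 20.2 and 14.5 FPKM in males and at 0.651, 0.460 and 0.262 FPKM in females (-3.38 ± 0.31, adjusted p = 0.0103), a 32.1-fold ratio of means. It lies on the X (X:2622069-2624575) and overlaps *Seipin* on the opposite strand. The call was lost without male replicate 3 or any 1 female replicate (adjusted p up to 0.0767). The next 6 male-side genes of at least 300 nt by p, none of them called, were all X-linked, *roX2* among them. *CG11164* stood at 4.54, 11.7 and 7.15 FPKM in males and 1.15, 0.766 and 0.707 FPKM in females (-2.16 ± 0.34, adjusted p = 0.139). *CG4586* stood at 5.53, 21.4 and 12.8 FPKM in males and 0.995, 1.07 and 0.953 FPKM in females (-2.66 ± 0.44, adjusted p = 0.165). The remaining *CG14795*, *nod* and *CR32745* gave -1.54, -1.5 and -1.31. *nod*, a kinesin-like gene, starts just past the end of *roX2* on the same strand, at X:11580772 against X:11580432.

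*CG32625* illustrates the weight of male replicate 2, and was named after its values were seen. It lies upstream of *Yp3* on the X and stood at 7.03, 0.690 and 12.1 FPKM in males and 0, 0.179 and 0 FPKM in females. With all libraries the difference was -2.41 ± 0.72 (adjusted p = 0.672), and without male replicate 2 it was -3.28 and passed (adjusted p = 0.0236). *Cht2*, a chitinase gene, and *CG4259*, of a serine protease family, were likewise below the threshold with all 6 libraries and called higher in females without that one (2.74 with adjusted p = 0.0498, and 2.00 with adjusted p = 0.0201). The noncoding genes *CR11235* and *lncRNA:CR44635*, also called higher in males then, were listed at 0 in male replicate 2 and in all females. On the X, *y* (yellow, a pigmentation gene) is a mutant marker in the genotype given for these flies. It stood at 1.74, 2.41 and 1.94 FPKM in females and 0.129, 0.0738 and 0.336 FPKM in males (1.36 ± 0.29, adjusted p = 0.387), and the male values rest on an estimated 1 to 6 fragments a library.

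The X as a whole was level between the sexes. Its 1648 tested genes had a median difference of 0.02 (0.02 without male replicate 2), against 0.05 over the 8488 genes of the 4 long autosome arms (0.01 without it). Of the X genes, 4 were called higher in females (0.144% of all genes) and 3 in males (0.0576% of all genes). The 4 were the yolk protein genes and *asRNA:CR45601*, which lies within *Yp1*. Among genes separated by at least 1 log2, 21 of the 1648 X genes were on the female side and 27 on the male side. On the autosome arms there were 129 and 49 of 8488, and over all genes 153 and 77 of 10424. Genes of a chromosome are not replicates, so these counts were not tested. The small chromosome 4 had the only median away from 0, at 0.42 over 93 genes, with 91.4% of them on the female side. Without male replicate 2 its median was -0.09 and 34.4% were on the female side, and over the libraries left out the median ranged from -0.09 to 0.91.

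**Figure D4:**
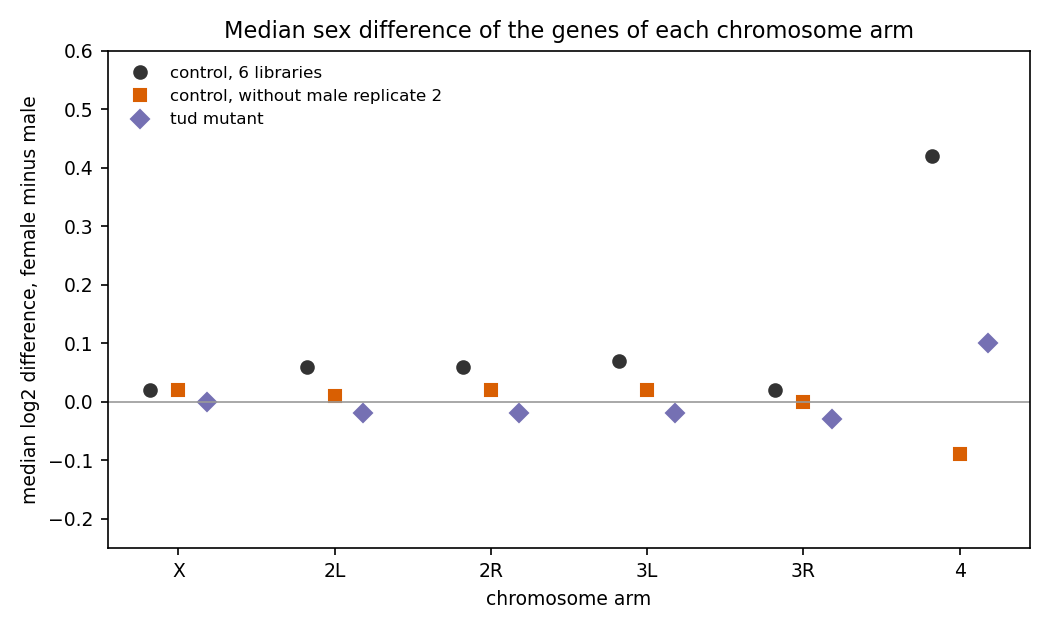
Median log2 difference (female minus male) of the tested genes of each chromosome arm; circles are the 6 control libraries, squares the control without male replicate 2 and diamonds the tud mutant brains. Chromosome 4 alone lies above 0.1 in the control, and its median goes from 0.42 to -0.09 without male replicate 2.

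The Y chromosome gave a check of the labels. Of 71 Y-linked genes in the table none reached the filter, 38 were above 0 in at least 1 control male library and 3 in at least 1 control female library. The highest value was 3.47 FPKM in a male and 0.662 FPKM in a female. The summed level was 15.1, 3.05 and 11.9 FPKM in males and 0.499, 0.199 and 0.886 FPKM in females. *Yp1*, *roX1* and the Y-linked sum thus placed all 6 libraries on the side of their labelled sex, with male replicate 2 nearest to the females in the Y-linked sum.

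Markers of brain cell types showed no call between the sexes. *elav*, a neuron marker, stood at 39.3, 25.7 and 18 FPKM in females and 43.5, 11.3 and 28.6 FPKM in males, and *repo*, a glia marker, at 49.0, 58.0 and 62.3 FPKM in females and 55.0, 101 and 55.2 FPKM in males, so both were present in all brains with overlapping groups. The median difference was 0.00 over 9 neuron markers and -0.05 over 11 glia markers, with none called (1 at an unadjusted p under 0.05 in each list, limma). The neuron marker was *brp*, at 48.8, 37.5 and 34.8 FPKM in females and 64.4, 72.2 and 64.4 FPKM in males. The glia marker was *Mdr65*, at 171, 234 and 199 FPKM in females and 117, 149 and 107 FPKM in males. Neither overlapped between the sexes, and in *tud* mutant brains *Mdr65* was separated the same way and *brp* overlapped. Without male replicate 2 the neuron median was -0.36. Photoreceptor markers were abundant in both sexes (*ninaE*, the main rhodopsin, at 1315 to 1604 FPKM in females and 781 to 1865 FPKM in males) with a median of 0.24 and none of 14 called (3 at an unadjusted p under 0.05). Gut markers had a median of -0.24 over 8 tested genes, monoamine genes -0.07 over 13, clock genes 0.19 over 10 and heat shock genes -0.02 over 9, with none called in these 4 lists (0, 1, 0 and 0 at an unadjusted p under 0.05). Of 22 testis and male tract markers 17 were below the filter, and the 5 tested had a median of 0.03 with none called by limma (1 at an unadjusted p under 0.05). That 1 was *Acp95EF*, at 19.2, 10.2 and 11.7 FPKM in females and 4.28, 7.34 and 1.86 FPKM in males (adjusted p = 0.672).

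Of 8 matched germline markers 5 were tested, with a median of 0.22 and none called (0 at an unadjusted p under 0.05, limma). The mean log2 level of all 8 matched markers was 1.47 to 1.62 in females and 1.32 to 1.36 in males (exact permutation p = 0.1, the smallest possible).

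The 78 tested cytosolic ribosomal protein genes leaned to the male side, with a median of -0.37 (-0.57 without male replicate 2) and 66 of them below 0. None was called and 2 had an unadjusted p under 0.05 (limma). The mean log2 level of all 80 matched genes was 9.92 to 10.11 in females and 10.13 to 10.9 in males, and the exact permutation p was 0.1, the smallest possible. Their summed level was 401467 FPKM in male replicate 3 against 180405 to 208439 FPKM in the 5 other libraries. The sum of all FPKM was also the highest there, at 3411767, against 1025340 to 1973983 in the others.

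Short noncoding RNAs made up 7 of the 21 calls although 356 of the 10424 tested genes were under 300 nt. The libraries had been size-selected against short RNAs, and FPKM of such genes rests on few mappable positions. *snoRNA:U31:54Ed*, a guide RNA for ribosomal RNA modification within the host gene *Uhg1*, stood at 197, 298 and 275 FPKM in females and was listed at 0 in all males (adjusted p = 2.92e-05). *snoRNA:Me5.8S-G74* stood at 383, 621 and 307 FPKM in females and was listed at 0 in all males (adjusted p = 5.2e-05). *mir-4956*, a microRNA gene inside *Sxl*, stood at 44.2, 87.1 and 73.7 FPKM in males and was listed at 0 in all females (adjusted p = 0.000319). A value listed at 0 in this table need not be absence, since all 35 mitochondrial genes were listed at 0 as well, and no fold is given for these genes. A sex listed at 0 throughout has no spread, which makes the p-values small. These genes also passed the filter only through the other sex. Their p-values are therefore not taken as support for a sex difference.

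The others called were *tRNA:Leu-TAA-1-1*, *snoRNA:Me18S-C1096* and *snoRNA:Me28S-A2634b* in females and a further small nucleolar RNA in males. These too were listed at 0 in every control library of the other sex, so the same limit holds. None of the 7 was separated the same way in *tud* mutant brains, where *snoRNA:U31:54Ed* and *mir-4956* were listed at 0 in all 6 libraries. Of 184 tested small nucleolar RNAs, 4 were called higher in females (0.144% of all genes) and 1 in males (0.0576% of all genes), with a median of 1.08. The median was -0.27 without male replicate 2, in which 136 of 243 such genes were listed at 0, against 75 to 93 in the other control libraries.

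The *tud* mutant brains gave the same contrast in libraries that the control comparison does not share. All 14 called genes of at least 300 nt had the same direction there, and for 13 of them the female and male mutant libraries were separated the same way, against 8.93% of all genes. The exception was *lectin-24Db*, at 26.8, 15.6 and 42.3 FPKM in mutant females and 15.6, 15.6 and 16.5 FPKM in mutant males. When the 6 mutant libraries were fitted alone, 4 of the 14 were called (0.0835% of all genes). In the fit of all 12 brain libraries 11 of the 14 were called in the mutant, in which 0.131% of all genes were called. That fit takes the spread of a gene partly from the control libraries in which the 14 were called. Its count is therefore not independent of the control comparison.

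*Yp1* differed by 8.33 in the mutant against 9.33 in the control, *fit* by 5.69 against 4.68, *Eh* by 2.92 against 2.68, *Ndg* by 2.16 against 2.26 and *roX1* by -6.27 against -5.99. *roX2* stood at 11658, 11621 and 14795 FPKM in mutant males and 32.6, 10.3 and 28.1 FPKM in mutant females, and was called (-9.14, adjusted p = 0.00845). All 3 mutant males were thus at the level of control male replicates 1 and 3. *Eh* was lower in mutants of both sexes, at 24.3, 16.9 and 20.9 FPKM in females and 2.33, 1.75 and 1.51 FPKM in males, with the sexes still separate.

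In the mutant, *Hml* differed by 0.80, *NimC1* by 0.93 and *Sr-CI* by 0.75, none called, and the median of the haemocyte list was 0.65. Mutant female replicate 2 was the lowest mutant female for each, at 24.5 FPKM of *Hml*, 11 FPKM of *NimC1* and 18.1 FPKM of *Sr-CI*. That library also lay apart from the other mutants, with a median correlation with the other brain libraries of 0.904, against 0.936 to 0.946. Its part in the smaller mutant differences was not tested. The test of the difference between control and mutant did not pass for any of the 14 genes (adjusted p of 1 for each, limma interaction), and 1 of them, *Sr-CI*, had an unadjusted p under 0.05. Over all genes 2 of 10689 passed (0.0187%), both short noncoding RNAs, and 137 had an unadjusted p under 0.05 (1.28%).

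Of 210 genes of at least 300 nt that were separated by at least 1 log2 in controls, 208 were tested in the mutant. The direction was the same for 199 of them, 72 were separated the same way, against 8.93% of all 10424 genes, and 0 the opposite way. Counted over genes of any length, 230 in all with 153 on the female side and 77 on the male side, 15 of 27 male-side genes on the X were separated the same way in the mutant, and on the autosome arms 10 of 49. On the female side these counts, also over any length, were 10 of 21 on the X and 37 of 129 on the autosome arms.

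**Figure D5:**
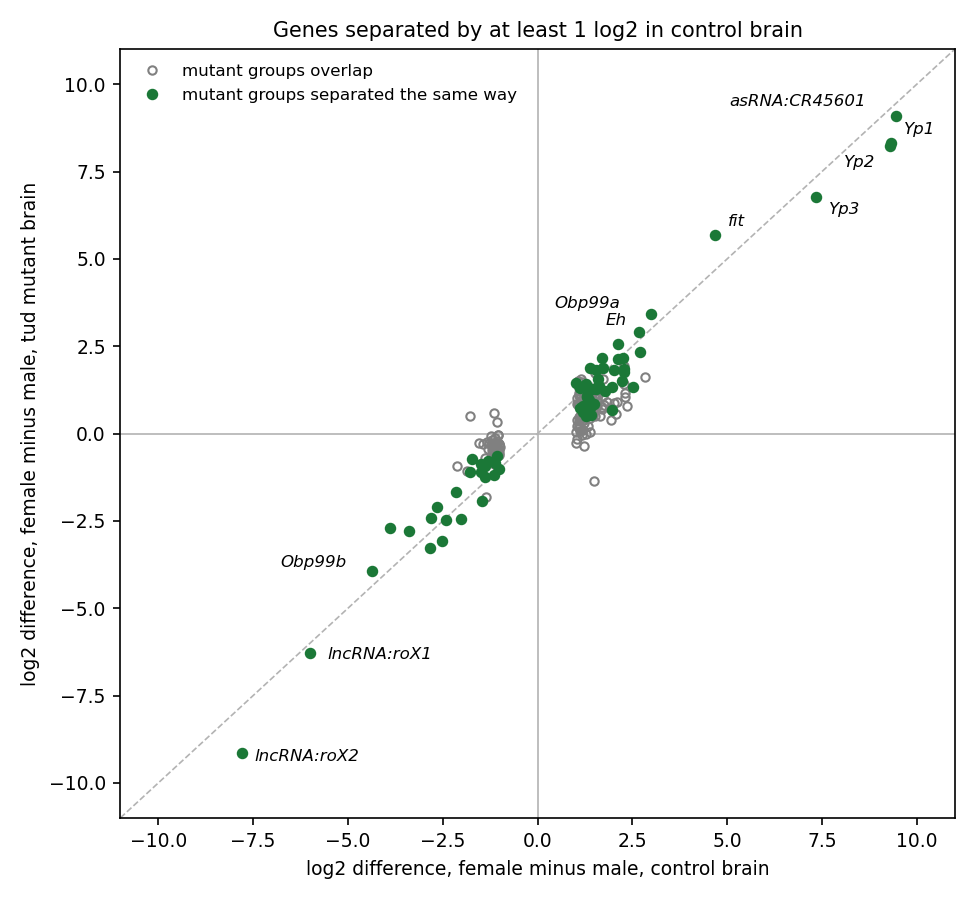
Log2 difference (female minus male) in tud mutant brain against that in control brain for 208 genes of at least 300 nt separated by at least 1 log2 in controls; the dashed line marks equal differences. Filled points (72 genes) were also separated in the mutant. Yolk protein genes, fit and both roX RNAs depart from equal differences by 0.28 (roX1) to 1.35 (roX2) log2.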

How the data were processed

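RNA was isolated with the mirVana kit and libraries were made with a stranded total RNA kit. The authors aligned reads with TopHat2 to dm6 using BDGP6 gene models, and the deposited table holds an FPKM for each gene and library. The submitters' processing notes list TopHat2 2.0.13, Cuffnorm 2.2.1 and FastQC 0.10.1. Which program wrote the table, and whether values were scaled between libraries, is not given in the sources used here. Depth is not given either. It was estimated from the spacing of the smallest FPKM values, of which 98.7 to 99.4% in the control brains lay within 0.1 of a whole fragment, and these estimates carry no interval and assume scaling by each library's own total.

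Symbols and positions came from Ensembl release 115 on the same assembly (17016 of 17288 identifiers matched). Values were compared as log2(FPKM + 1) with limma 3.58.1 in R 4.3.3 (moderation with a trend, two-sided, Benjamini-Hochberg over all genes tested). The main fit used the 6 control brain libraries and the genes averaging 1 FPKM or more in them. A fit of 12 brain libraries in 4 groups gave the mutant difference and the interaction. The p-values measure the spread between these libraries. Lists were described by counts and medians, and of 259 listed genes 8 were not matched. The named genes were the members of the yolk, dosage compensation, sex determination and head fat body lists, up to 10 called genes of at least 300 nt in each direction with groups that did not overlap (places left went to the next by p), up to 3 shorter called genes in each direction, and of other lists the called members and the most abundant one. Genes outside this rule were chosen after their values were seen: these are the haemocyte, immune, peptide hormone and matrix genes that were not called, *CG31465*, *CG32625*, *Cht2*, *CG4259*, *y* and the marker genes given as examples. The members and lists were chosen with earlier results of these data known. Alternatives were another pseudocount, filter, scaling, moderation, weighting, threshold, set of genes or libraries, and the replicate number as a block. Cyclophilins were taken out of the cytochrome P450 list, which is defined by symbol, after the members were seen. The fits were tested on simulated data. Ovary libraries were not used here. Figures were drawn with matplotlib 3.10.9 (Python 3.11.15).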

Additional observations from a re-analysis of the deposited data

Results flagged for a closer look

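The test of the difference between the control and the *tud* mutant contrasts passed for 2 genes (limma interaction, adjusted p of 0.05 or less over 10689 genes). *snoRNA:U31:54Ed* gave a difference between the contrasts of 7.99 ± 0.26 (SE, adjusted p = 6.29e-08), with 197, 298 and 275 FPKM in control females and values listed at 0 in all 9 other brain libraries. *mir-4956* gave -6.06 ± 0.34 (adjusted p = 1.09e-05), with 44.2, 87.1 and 73.7 FPKM in control males and values listed at 0 in all 9 others. Both sizes depend on the pseudocount, since 0 is not a measured floor. The groups listed at 0 have no spread, which makes the SE and the p-values small. Each gene also passed the filter only through the group where it was high. These p-values are therefore not taken as support for a sex difference that depends on genotype. Both genes are under 300 nt, and 6 tested genes under 300 nt were listed at 0 in every control library of a sex and above 10 FPKM in every library of the other, against 1 in the mutant and 0 among longer genes.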

How the results depend on the processing

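Of the 21 called genes, 8 passed the threshold under every alternative run for them (up to 16), 12 in every fit that left out 1 library, and none reversed. In both counts the genes of at least 300 nt were *Yp1*, *Yp2*, *Yp3*, *asRNA:CR45601*, *roX1* and *Eh*. The rest were short RNAs listed at 0 in every control library of a sex, so their p-values rest on a group without spread. The 21 calls became 12 to 30 when 1 library was left out (10 to 23 higher in females, 2 to 11 higher in males), 30 in the fit of 12 libraries, and 12 at an adjusted p of 0.01. The 6 male calls became 2 at an adjusted p of 0.01, 3 without the filter, without the trend or with protein-coding genes only, and 12 in the fit of 12 libraries. The 2 interaction calls became 0 among 9312 protein-coding genes (99 at an unadjusted p under 0.05, limma), since both are noncoding. The median of X genes was -0.07 after quantile normalization, where that of all genes was -0.03. The haemocyte level difference of 1.00 was 1.47 with a pseudocount of 0.1. Array weights were 0.231 to 0.603 for males and 1.38 to 3.91 for females. The replicate number as a block gave 15 calls, 11 higher in females and 4 in males, and 2 interaction calls. Deviations of same-numbered libraries correlated by 0.37, -0.14 and -0.10, and those of different-numbered libraries by -0.43 to 0.40. Whether the numbers pair the samples cannot be told from these values. With 3 libraries a sex and a median residual SD of 0.353 (log2), the smallest difference called was 1.39, and low genes rest on few fragments.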
